A study of Mus musculus with 6 samples.

Results

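The heat shock and DnaJ chaperones are the genes whose symbols start with *Hsp* or *Dnaj*, without the heparan sulfate proteoglycan gene *Hspg2* and without symbols of pseudogenes. Of 19449 genes counted in single cells, 71 met this rule, and the members held 2039497 UMIs (barcoded counts of captured RNA molecules, 1 per molecule). Heat shock proteins of the Hsp70 and Hsp90 families bind unfolded proteins and use ATP to help them fold. DnaJ proteins, also called Hsp40, deliver clients to Hsp70 and start its ATPase cycle, while nucleotide exchange factors release them. Heat, toxins and protein damage switch on the inducible cytosolic members through the transcription factor HSF1, and unfolded protein in the endoplasmic reticulum (ER) switches on the ER members through the unfolded protein response. In tissue macrophages such as microglia these genes also respond to enzymatic dissociation of the tissue.

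The members were divided by the place and mode of action of their proteins. The inducible cytosolic class had 8 members with 15.1% of the members' UMIs, the ER class 14 with 20.0%, the mitochondrial class 10 with 8.07% and the constitutive cytosolic class 28 with 56.1%. The remaining 11 members, mostly small heat shock proteins and distant Hsp70 relatives, held 0.782%. In all cells together 9 members had fewer than 100 UMIs, and of these *Dnajc5b* had none.

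CD45+ cells were sorted from the spinal cords of C57BL/6 mice that had received CD4+ T cells reactive to a myelin peptide, which causes experimental autoimmune encephalomyelitis (EAE). The donor T cells had been expanded with that peptide under Th17-polarizing conditions. The recipients were young (8 to 12 weeks) or middle-aged (40 to 44 weeks) and were examined on day 6 or day 10 after transfer, with 1 library of 4 pooled spinal cords for each age and day. Microglia from the spinal cord of naive young and middle-aged mice, which had received no cells, were sorted as CD11b+ cells with intermediate CD45 and sequenced in bulk with 1 library per age. All tissue was digested with collagenase and DNase at body temperature before sorting. No group had a replicate library, so differences between 2 libraries are values of those libraries, and their 95% intervals cover counting error only.

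The young day 6 library stood apart. The members took 1.06% of its UMIs, against 0.794% in the middle-aged library of day 6, 0.673% in the young and 0.730% in the middle-aged library of day 10. The libraries held 8315 to 10026 cells and 57337626 to 69859331 UMIs, with median depths of 4704.5 to 6196 UMIs per cell, and any pair shared 13 to 36 cell barcodes, at most 0.366% of the smaller library. Age and this library cannot be told apart on day 6, so levels are given in all 4 libraries and results are also given without it. The deposited cell clusters were used as numbered. Cluster 10 was microglia-like and cluster 2 T cell-like by their markers. Cluster 0, neutrophil-like by its markers, held 1489 of 8315 cells in the young and 3880 of 10026 in the middle-aged library of day 6. On day 10 it held 1729 cells in the young and 2159 in the middle-aged library. The part of the cell mix in the members' shares of library UMIs was not tested. Cluster 8 had the microglia markers as its highest list, with a median log2 ratio of 2.33 to the other clusters, but none of its 10 leading genes was among them, and it is called by its number.

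Chaperone levels differed widely between clusters and between classes. Levels are UMIs of a class per 1000000 UMIs of the same cluster and library (CPM). Inducible members had their highest mean level of the 4 libraries in cluster 10, at 2494 CPM, and their lowest in cluster 6, which was neutrophil-like, at 503 CPM. The mean in cluster 10 rested on the young day 6 library, as the other 3 had 912 to 1570 CPM there and 1274 to 1546 CPM in cluster 11. The ER members were also highest in cluster 10, at 4083 CPM, and lowest in neutrophil-like cluster 3, at 576 CPM. The mitochondrial members ranged furthest, from 61.5 CPM in cluster 3 to 1233 CPM in cluster 8. Mitochondrial chaperones were thus low in neutrophil-like clusters 0, 3 and 6, with means of 159, 61.5 and 91.0 CPM, and dendritic cell-like cluster 7 held 717 CPM. The mean of cluster 0 joined unlike days, with 67.1 (young) and 67.4 CPM (middle-aged) on day 6 and 254 and 247 CPM on day 10. Constitutive members had means of 1524, 1348 and 1207 CPM in the same 3 neutrophil-like clusters and of 5986 CPM in cluster 7. These cluster levels are a description, since the clusters were formed from the same cells.

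**Figure D1:**
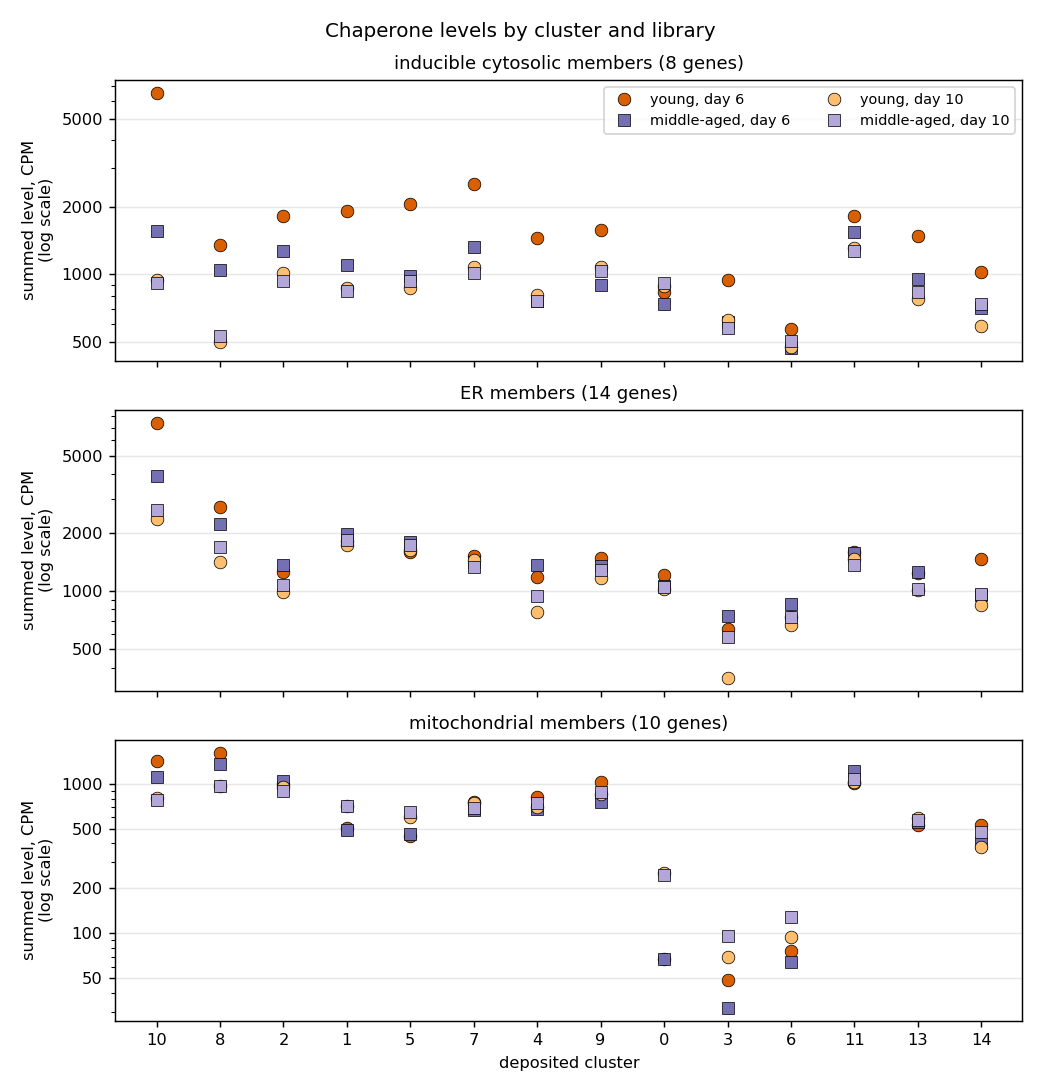
Summed level of the inducible cytosolic, ER and mitochondrial members (vertical axis, CPM, log scale) in each of 14 deposited clusters (horizontal axis) and 4 libraries (points). The young day 6 point is the highest inducible value in 13 of 14 clusters, and mitochondrial levels are lowest in clusters 0, 3 and 6.

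In the microglia-like cells of cluster 10 the inducible members were far higher in young recipients on day 6 than in any other library. On day 6 they summed to 6547 CPM in young recipients and to 1570 CPM in middle-aged recipients. On day 10 the young sum was 947 CPM and the middle-aged sum 912 CPM. Day 6 of the middle-aged group was therefore above both day 10 libraries. The age ratio, middle-aged divided by young on a log2 scale in which each unit is a factor of 2, was -2.06 (95% interval -2.11 to -2.01) on day 6 and -0.05 (-0.13 to 0.02) on day 10. Within an age, the log2 ratio of day 6 over day 10 was 2.79 in young and 0.78 in middle-aged recipients. Without the young day 6 library, the inducible sums of the other 3 spanned 912 to 1570 CPM.

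The inducible Hsp70 pair changed most. *Hspa1a* and *Hspa1b* are neighbouring genes on chromosome 17 for nearly identical stress-induced Hsp70 proteins, and reads may be divided between the copies, so that each gene's own value is uncertain. In the GENCODE annotation of GRCm38, *Hspa1a* spans chr17:34969190-34972156 and *Hspa1b* chr17:34956436-34959238, both on the minus strand. *Hspa1a* had 5575 UMIs in young and 378 in middle-aged recipients on day 6, and 335 and 168 on day 10. In CPM these were 1622, 159, 95.3 and 51.9 CPM in the same order, with log2 age ratios of -3.35 (-3.51 to -3.20) and -0.88 (-1.15 to -0.60). *Hspa1b* had 2835, 173, 164 and 72 UMIs, or 825, 72.6, 46.7 and 22.3 CPM, and log2 ratios of -3.51 and -1.07. Both copies were thus lower in middle-aged recipients on each day. Alone among the inducible members with 100 UMIs or more, these copies and *Dnajb1* had an interval below 0 on both days.

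The partners of inducible Hsp70 followed on day 6. *Dnajb1*, the main inducible Hsp40 that recruits Hsp70 to stress-damaged protein, had 668, 112, 88.5 and 69.9 CPM in young and middle-aged recipients of day 6 and then of day 10, with log2 ratios of -2.58 and -0.34. *Dnaja1*, a farnesylated Hsp40 cochaperone, had 1371, 389, 272 and 320 CPM, with ratios of -1.82 and 0.23. *Hsph1*, the Hsp110 nucleotide exchange factor, had 164, 47.4, 15.1 and 21.6 CPM, with ratios of -1.79 and 0.52. For *Dnaja1* the direction was opposite on day 10, and for *Hsph1* the interval of day 10 (-0.01 to 1.06) held 0.

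*Hsp90aa1*, the inducible form of cytosolic Hsp90, had 1778 CPM (young) against 758 CPM (middle-aged) on day 6 and 410 against 408 CPM on day 10. Its log2 ratio was -1.23 on day 6 and -0.01 on day 10. *Hspb1*, the ATP-independent small chaperone Hsp27, had 216 UMIs in the young library of day 6 and 16, 2 and 5 in the others. It was thus nearly restricted in count to 1 library of this cluster, with a log2 ratio of -3.23 (-4.06 to -2.49) on day 6. *Dnajb4*, another Hsp40 of the *Dnajb1* type, had 190, 59, 66 and 54 UMIs and a ratio of -1.16 (-1.61 to -0.73). On day 6 all 8 inducible members were at least 2-fold lower in middle-aged recipients, with a median log2 ratio of -2.20. For *Hspb1* this did not hold beyond cluster 10. Over the cells of all clusters it had 288 UMIs in the young and 317 in the middle-aged library of day 6. In neutrophil-like cluster 0 it had 17 and 87 UMIs on day 6, a ratio of 1.225 (0.46 to 2.07).

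Across all classes in cluster 10, 10 of 47 members with 100 or more UMIs were at least 2-fold lower in middle-aged recipients on day 6 and 0 were at least 2-fold higher. Of all 6668 genes with as many UMIs, 1.42% were 2-fold lower and 1.50% higher. The 10 were the inducible members with the ER genes *Hspa5* and *Dnajb9*. The median over these 47 members was -0.19, against -0.04 over all genes, with 34 of 47 below 0. On day 10, 1 of 47 members was 2-fold lower, *Hspa1b*, and 0 higher, where 0.328% of all genes were lower and 0.313% higher. The members' median on day 10 was -0.01.

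**Figure D2:**
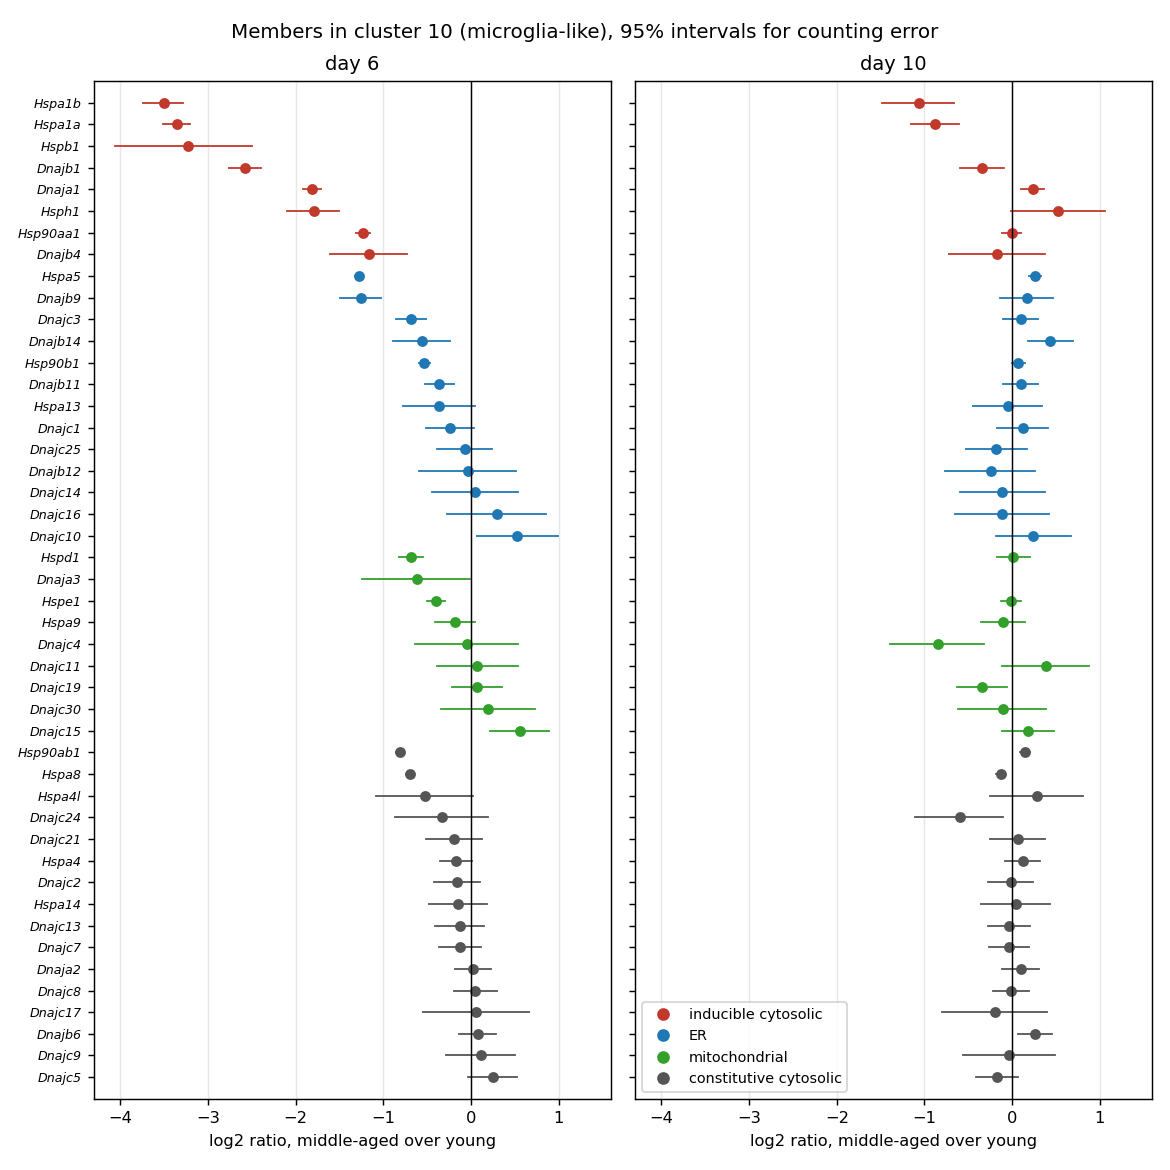
Log2 age ratio (middle-aged divided by young) for members with 100 or more UMIs in cluster 10 (horizontal axis) on day 6, left, and day 10, right. Lines are 95% intervals for counting error. On day 6 all 8 inducible members lie to the left, from -3.51 to -1.16, and on day 10 the 7 with 100 or more UMIs lie between -1.07 and 0.52.

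Shared sequence in the promoters of the members is shown here because HSF1 binds inverted repeats of GAA, the heat shock element. RefSeq promoters of build GRCm38.p6, 250 bases before to 50 after a start site, were found for 57 of 71 members and 7 of 8 inducible members (none for *Hsp90aa1*). Searched were 3 alternating units, GAANNTTCNNGAA, and 2 units, GAANNTTC or TTCNNGAA, on both strands. The first contains the second, and the 2-unit search was added after the data were seen. The 3 units were found in 0.603% of 32851 promoters and, of the inducible genes, in *Hsph1* alone. Pairs were found in 6 of 7 inducible genes (85.7%) and in 17.0% of all genes. The inducible gene without a pair was *Dnajb1*, with a day 6 ratio of -2.58. In the other classes, pairs were in 1 of 12 ER, 2 of 7 mitochondrial, 3 of 22 constitutive and 3 of 9 remaining genes. The stretches with pairs in capitals are given 5′ to 3′ on the gene's strand for the genes with the lowest day 6 ratios and for *Dnaja1*, from chr17:34972243-34972270 (minus strand) for *Hspa1a*, chr17:34959325-34959352 (minus) for *Hspa1b*, chr5:135887792-135887839 (plus) for *Hspb1* and chr4:40722334-40722361 (plus) for *Dnaja1*.
Hspa1a: gaaactgctgGAAGATTCctggccccaa
Hspa1b: gaaactgctgGAAGATTCctggccccaa
Hspb1: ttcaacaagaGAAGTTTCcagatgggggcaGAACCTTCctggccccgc
Dnaja1: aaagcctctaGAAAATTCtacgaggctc
The *Hspa1a* and *Hspa1b* stretches were the same, 114 to 87 bases before the start site, and their promoters shared 296 of 300 bases. *Hspb1* had 2 pairs, the others 1 each. A match is a run of letters and not a measured binding site.

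The ER members formed the next largest difference in cluster 10. Their sum on day 6 was 7428 CPM in young recipients against 3920 CPM in the middle-aged group, and 2356 against 2628 CPM on day 10. Again the young day 6 library was highest and the middle-aged library of that day second. The log2 age ratio was -0.92 (-0.96 to -0.89) on day 6 and 0.16 (0.11 to 0.20) on day 10, where middle-aged recipients were the higher group. This class rested mainly on *Hspa5*, since the median of its 13 members with 100 or more UMIs on day 6 was -0.36, and the sum without *Hspa5* gave -0.52.

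*Hspa5* encodes BiP, the Hsp70 of the ER lumen that holds the stress sensors inactive. It had 15341 UMIs in young and 4398 in middle-aged recipients of day 6, then 3200 and 3533 of day 10, or 4463, 1846, 910 and 1092 CPM, with log2 ratios of -1.27 (-1.32 to -1.23) and 0.26 (0.19 to 0.33). *Dnajb9*, or ERdj4, a BiP cochaperone that restrains the sensor IRE1, had 197, 82.3, 52.1 and 58.4 CPM and ratios of -1.26 and 0.17. These were the members of the class beyond 2-fold. *Hsp90b1*, or GRP94, the Hsp90 of the ER, had 1877, 1298, 848 and 891 CPM and ratios of -0.53 and 0.07. *Dnajc3*, or p58IPK, had 271, 169, 121 and 129 CPM and a day 6 ratio of -0.68.

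Other ER members differed less or in the other direction. *Dnajb11*, or ERdj3, had a day 6 ratio of -0.36, and *Dnajc1* one of -0.24 (-0.52 to 0.03). *Dnajc10*, or ERdj5, a disulfide reductase of the ER, was higher in middle-aged recipients on day 6, with 82 UMIs in each library, 23.9 and 34.4 CPM and a ratio of 0.53 (0.07 to 0.99). *Dnajc16* had a ratio of 0.29 (-0.27 to 0.86). Of the 13 ER members, 6 had an interval below 0 on day 6 and *Dnajc10* above it.

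The ER stress response element, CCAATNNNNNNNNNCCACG, is the sequence through which ATF6 acts on ER chaperone genes. It was found on either strand in 0.119% of 32851 RefSeq promoters and in 3 of 12 ER genes (25%), namely *Hspa5*, *Hsp90b1* and *Dnajc3*, and in 0 inducible or mitochondrial promoters. The stretches, with the element in capitals, come from chr2:34772015-34772053 (plus strand) for *Hspa5*, chr10:86705523-86705666 (minus) for *Hsp90b1* and chr14:118937817-118937855 (plus) for *Dnajc3*, in build GRCm38.p6.
Hspa5: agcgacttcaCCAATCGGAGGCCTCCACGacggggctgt
Hsp90b1: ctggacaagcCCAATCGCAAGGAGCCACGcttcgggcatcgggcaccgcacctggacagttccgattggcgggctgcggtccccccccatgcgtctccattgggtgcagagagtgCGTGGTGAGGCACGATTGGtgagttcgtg
Dnajc3: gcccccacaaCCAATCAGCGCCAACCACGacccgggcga
*Hsp90b1* held the element in both orientations. *Dnajb9*, with a day 6 ratio near that of *Hspa5*, held no match in this window.

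Of the inducible, ER, mitochondrial and constitutive classes, the mitochondrial one differed least on day 6 in cluster 10. Their sum on day 6 was 1433 CPM in young recipients against 1111 CPM in the middle-aged group, and 812 against 786 CPM on day 10. The log2 ratio was -0.37 (-0.44 to -0.30) on day 6 and -0.05 (-0.12 to 0.03) on day 10. *Hspd1*, the chaperonin Hsp60, had 446, 278, 136 and 137 CPM and a day 6 ratio of -0.68, and *Hspe1*, its lid Hsp10, 662, 503, 388 and 385 CPM and -0.40. Both were highest in the young library and next in the middle-aged library of day 6. *Hspa9*, mortalin, the Hsp70 that pulls proteins into the matrix, had a ratio of -0.18 (-0.41 to 0.05), and *Dnajc15*, a DnaJ protein of the inner membrane, was higher in middle-aged recipients at 42.8 and 62.9 CPM, a ratio of 0.56 (0.22 to 0.90). *Dnajc30* had a ratio of 0.20 (-0.35 to 0.73).

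*Hspd1* and *Hspe1* lie head to head on chromosome 1, with annotated spans that overlap. A stretch in the *Hspe1* promoter and in 1 of 2 *Hspd1* promoters held 2 overlapping matches to the 3-unit heat shock element. It is shown on each gene's strand, with the alternating units in capitals, from chr1:55088049-55088086 in build GRCm38.p6 of RefSeq, the minus strand for *Hspd1* and the plus strand for *Hspe1*.
Hspd1: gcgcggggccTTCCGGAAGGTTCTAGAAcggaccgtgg
Hspe1: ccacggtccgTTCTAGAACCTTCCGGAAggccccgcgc
Of 7 mitochondrial genes with a promoter, these were the 2 with any match.

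Constitutive cytosolic members had 9426, 6015, 4242 and 4242 CPM in cluster 10, with a log2 ratio of -0.65 (-0.68 to -0.62) on day 6 and 0.00 on day 10. *Hsp90ab1*, the constitutive Hsp90, had 4176, 2375, 1386 and 1529 CPM and a day 6 ratio of -0.81. *Hspa8*, the constitutive Hsp70 Hsc70, had 4046, 2504, 1843 and 1681 CPM and -0.69. These abundant genes carried the sum, as the median of 16 members was -0.13. *Dnajc5*, the cysteine string protein of vesicles, had a ratio of 0.25 (-0.03 to 0.52), and *Hspa4*, an Hsp110 relative, had -0.17.

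The day 6 difference lay in the bulk of the cells of cluster 10 and not in a few. In young recipients the inducible CPM of a cell had a median of 5087 over 432 cells, with a 10th percentile of 1385 and a 90th of 15306. In middle-aged recipients of day 6 the median was 1360 over 216 cells, with 499 and 3120 at the same percentiles. The medians of day 10 were 807 and 826. The 10 highest cells held 10.5% of the inducible UMIs in the young day 6 library and 10.7% to 13.9% in the others.

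**Figure D3:**
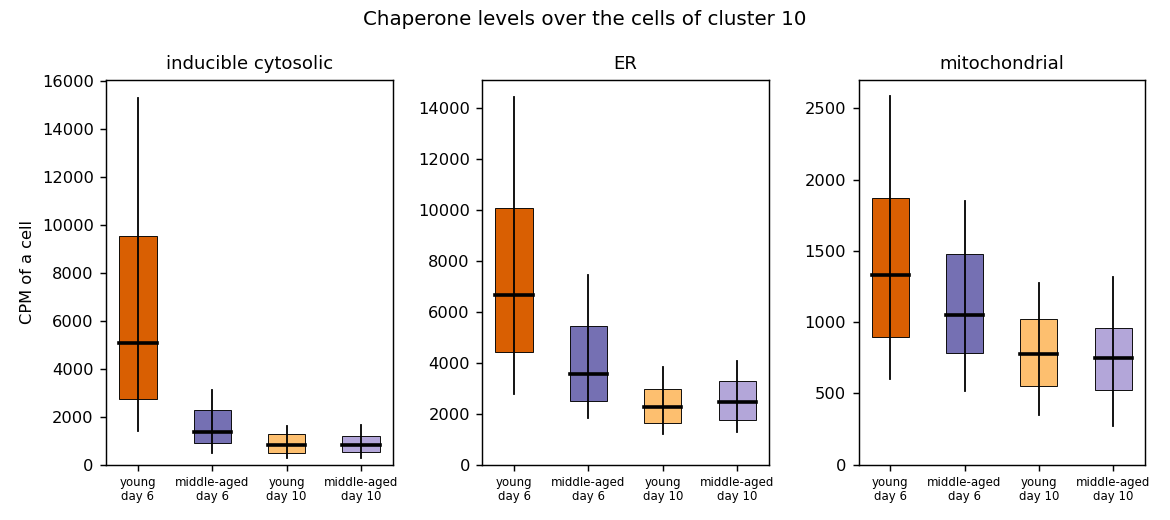
Level per cell (vertical axis, CPM of a cell) of the inducible, ER and mitochondrial members in cluster 10 of each library; thick lines are medians, boxes the 25th to 75th and thin lines the 10th to 90th percentile of cells. The young day 6 median for inducible members, 5087, lies above the 90th percentile of the other 3 libraries, which is 3120 at most.

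On day 6 cells with more inducible message also had more of the other classes, and on day 10 mainly of the constitutive class. Over the cells of the young day 6 library, the Spearman correlation of inducible CPM was 0.77 with constitutive, 0.43 with ER and 0.38 with mitochondrial CPM, and 0.62, 0.40 and 0.36 over those of the middle-aged library. On day 10 it was 0.45 and 0.37 with constitutive, 0.01 and 0.13 with ER and 0.02 and 0.08 with mitochondrial CPM. These cells share a library and each pair of values a cell total. The correlation of inducible CPM with depth per cell was -0.04 and -0.20 on day 6 and 0.19 and 0.02 on day 10. With immediate-early CPM the correlation was 0.60 and 0.31 on day 6 and 0.38 and 0.20 on day 10.

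Other gene lists moved with the chaperones in cluster 10. The 16 immediate-early genes, such as those of the Fos and Jun families, summed to 23445 CPM (young) against 14033 CPM (middle-aged) on day 6, a log2 ratio of -0.74, with 15 of 16 lower. On day 10 their ratio was 0.28. The 10 microglia markers had a day 6 ratio of -0.69, with 10 of 10 lower, and -0.02 on day 10. The 10 neutrophil markers had 4703 CPM in the young and 1513 CPM in the middle-aged library of day 6, a ratio of -1.64 with 8 of 10 lower, and -0.68 on day 10. The dividing-cell markers had 0.67, with 8 of 8 higher, and -0.32. The part of any of these lists in the chaperone difference was not tested. Cochaperones of HSF1 and Hsp70 outside the *Hsp* and *Dnaj* names had a ratio of -0.53 on day 6, with 13 of 15 measured genes lower and 3 of them 2-fold, and -0.01 on day 10. The 8 subunits of the cytosolic chaperonin TRiC had -0.34, with 8 of 8 lower. Other genes of the ER unfolded protein response had -0.52, with 20 of 21 lower and 5 of them 2-fold. Mitochondrial import and protease genes had -0.04 on day 6 (-0.16 to 0.08) and 0.06 on day 10.

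In cluster 8 the classes differed less on day 6. Inducible members had 1352 against 1050 CPM (young, middle-aged) on day 6 and 496 against 532 CPM on day 10, with log2 ratios of -0.36 (-0.49 to -0.24) and 0.10 (-0.01 to 0.21). The ER members had 2716, 2208, 1414 and 1680 CPM and ratios of -0.30 and 0.25. The day 6 ER ratio turned to 0.0624 without cells that held markers of other lineages, which kept 52 of 249 young and 47 of 364 middle-aged cells. The mitochondrial members had 1625, 1358, 974 and 974 CPM and ratios of -0.26 and 0.00. Day 6 libraries were thus above day 10 libraries of either age in each of these classes. Of 20 members with 100 or more UMIs on day 6, 17 were lower in middle-aged recipients, with 0 beyond 2-fold in either direction, where 0.373% of all genes were 2-fold lower and 2.20% higher. On day 10 0 of 33 members passed 2-fold, with 0.589% of all genes lower and 0.172% higher.

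*Dnaja1* had 407, 291, 177 and 186 CPM in cluster 8 and a day 6 ratio of -0.48, and *Hsp90aa1* 808, 671, 257 and 294 CPM and -0.27. *Dnajc3* had -0.66, *Hspd1* -0.52, *Dnajc2*, a ribosome-associated DnaJ protein, -0.53 and *Hspa5* -0.32. The highest was *Dnajc7*, a cochaperone that binds Hsp70 and Hsp90, at 0.40 (-0.05 to 0.86). *Hspa1a* had 26 and 17 UMIs on day 6 and 37 and 13 on day 10, under the minimum, and was lower in CPM in middle-aged recipients on each day. On day 10 the cluster also held monocyte and macrophage markers at 12083 and 15363 CPM, against 2200 and 2380 CPM on day 6. Its cells thus differed between days, and the part of this in the day difference was not tested. Neutrophil markers had 7594 (young) and 11156 CPM (middle-aged) on day 6, a log2 ratio of 0.55. On day 10 they had 9014 and 3761 CPM, a ratio of -1.26, and their part in the age ratios was not tested.

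In the T cell-like cells of cluster 2, the inducible sum was lower in middle-aged recipients on day 6, and the ER and mitochondrial sums were slightly higher. Inducible members had 1831 and 1273 CPM on day 6 and 1020 and 937 CPM on day 10, with ratios of -0.52 (-0.56 to -0.48) and -0.12 (-0.16 to -0.09). The ER members had 1246 and 1360 CPM on day 6, a ratio of 0.13 (0.08 to 0.17), and 0.12 on day 10. Of 13 ER members with 100 or more UMIs on day 6, 9 were nonetheless lower in middle-aged recipients, with a median of -0.15, and 2 intervals lay below 0 and 2 above. The mitochondrial members had 993 and 1050 CPM, a ratio of 0.08 (0.03 to 0.13), and -0.09 on day 10. That day 6 direction turned to -0.10 for log-normalized cells and to -0.0087 without the highest member. *Hspa9* was the highest member on day 6, with 54.4 and 84.9 CPM and a ratio of 0.64 (0.46 to 0.83), while *Hspa5*, *Hspd1* and *Hspe1* had 0.27, 0.26 and 0.24.

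Of the inducible members in cluster 2, *Hspa1a* had 69.1, 38.6, 32.0 and 6.93 CPM (489, 265, 444 and 107 UMIs) and log2 ratios of -0.84 on day 6 and -2.21 (-2.53 to -1.90) on day 10. *Hspa1b* had 61.7, 30.9, 31.3 and 10.4 CPM, with ratios of -0.998 and -1.60. Both copies were thus lower in middle-aged recipients on each day, and by more on day 10. Neutrophil markers in this cluster had a ratio of 1.31 on day 6 and of -1.93 on day 10 (495 and 130 CPM), and NK cell markers 0.12 and -0.48, and their part in these values was not tested. *Dnaja1* had -0.81, *Dnajb1* -0.70 and *Hsph1* -0.60 on day 6, and *Dnaja1* was at -0.02 on day 10. Among other members, *Hspbap1*, which binds Hsp27, had -0.74 (-1.31 to -0.19) and *Dnajc15* -0.47. On day 6 0 of 50 members were 2-fold lower or higher, *Hspa1b* being just short, and on day 10 2 of 55 were lower, *Hspa1a* and *Hspa1b*. The shares of all genes were 0.419% lower and 1.06% higher on day 6, and 0.274% lower and 0.121% higher on day 10.

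The direction of the inducible sum on day 6 was shared by all 14 large clusters. Its log2 ratio was below 0 with its interval in 14 of 14, from -2.06 in cluster 10 to -0.18 in cluster 0, with a median of -0.64. Monocyte/macrophage-like clusters 5 and 1 had -1.07 and -0.80, dendritic cell-like cluster 7 had -0.94, B cell-like cluster 4 -0.94 and NK-like cluster 9 -0.82. On day 10 it ran from -0.13 to 0.33, with 8 of 14 below 0. These are ratios of sums, and single members did not all share the direction. In cluster 0 on day 6 *Dnaja1* had -0.36 (-0.45 to -0.28), while the intervals of *Dnajb1*, *Hsp90aa1*, *Hspa1a* and *Hspa1b* held 0. *Hspb1* was higher in middle-aged recipients there, at 1.225 (0.46 to 2.07). The ER class had 7 of 14 clusters below 0 on day 6, from -0.92 to 0.22, and 2 of 14 on day 10. The mitochondrial class had 9 of 14 below 0 on day 6, from -0.63 in cluster 3 to 0.27 in cluster 11. The constitutive class was nearer the inducible one, with 12 of 14 below 0 on day 6 and 4 of 14 on day 10. Its day 6 ratios ran from -0.67 in cluster 14 to 0.14 in cluster 11, with a median of -0.37. The young day 6 library had the highest inducible level in 13 of 14 clusters, the highest constitutive level in 11 of 14 and the highest *Dnaja1* level in 14 of 14. For *Hspa5* it was highest in 7 clusters and the middle-aged library of day 6 in the other 7.

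Outside cluster 10, the young day 6 level of *Hspa1a* was highest in clusters 7, 5 and 1. *Hspa1a* had 489, 104, 160 and 99.3 CPM in dendritic cell-like cluster 7 (day 6 young and middle-aged, then day 10), a day 6 ratio of -2.23 (-2.40 to -2.06). In monocyte/macrophage-like cluster 1 it had 378, 143, 141 and 89.5 CPM and -1.41, and in cluster 5 394, 108, 101 and 75.1 CPM and -1.87. In each of these 3 clusters the young day 6 library was again the highest, and the others spanned 75.1 to 160 CPM. In neutrophil-like cluster 0 it had a day 6 ratio of 0.02 (-0.20 to 0.25).

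**Figure D4:**
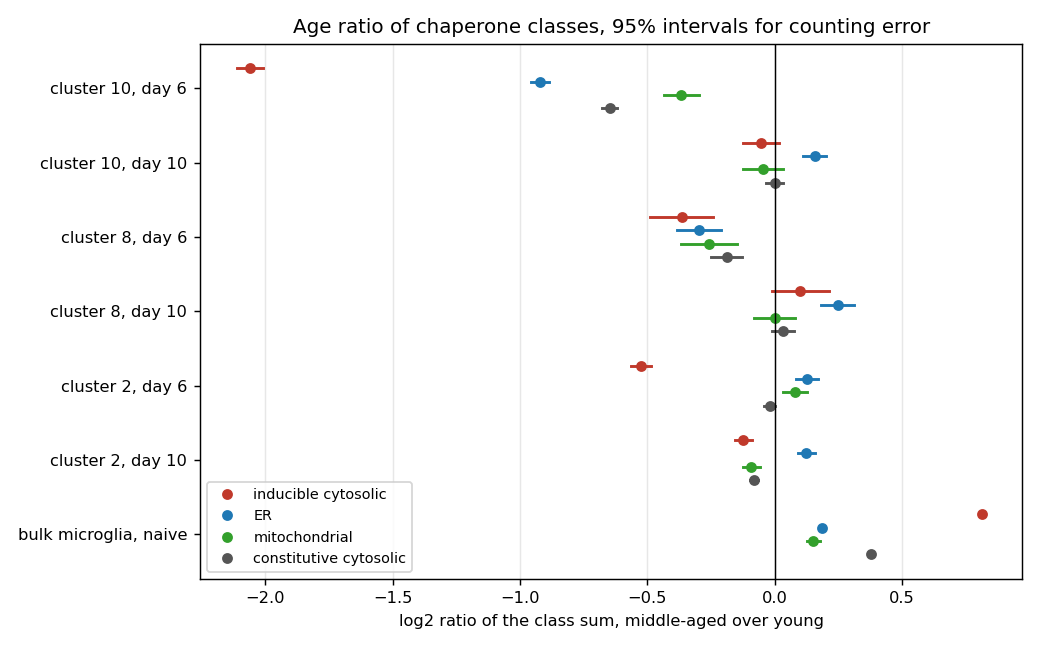
Log2 age ratio (middle-aged divided by young) for the summed level of 4 chaperone classes (horizontal axis) in clusters 10, 8 and 2 on each day and in bulk microglia of naive mice, with 95% intervals for counting error. The inducible class is lowest in cluster 10 on day 6 (-2.06) and highest in bulk (0.82).

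For a test of age across the days, sums per library were fitted with edgeR's quasi-likelihood test, with day as a covariate, 4 libraries and 1 residual degree of freedom, and Benjamini-Hochberg adjustment over all genes of a cluster. Its p-values measure the spread left among these 4 libraries after day and age, and not the spread between mice. That spread comes from how far the age ratio differs between the days. The test therefore cannot show whether age effects differ between days, and a gene not called may still differ on 1 day. In cluster 2, 2 of 58 members passed an adjusted p of 0.05, both lower in middle-aged recipients, where 0.0704% of 11362 genes were called lower and 0.00880% higher. *Hspa1b* had a log2 change of -1.29 (SE 0.198, edgeR adjusted p = 0.00893) and *Hspa1a* one of -1.47 (SE 0.254, edgeR adjusted p = 0.0333), each lower on 2 of 2 days. DESeq2 also called 2 members. With any library left out, or without day in the design, edgeR called 0. The fits with a library left out also had no day term, so they changed both at once.

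In cluster 10 edgeR called 0 of 59 members, where it called 0.0757% of 10562 genes lower and 0.0663% higher. At an unadjusted p of 0.05 it had 7 members lower (*Hspa1a*, *Hspa1b*, *Hspb1*, *Hsph1*, *Dnajb1*, *Dnajb2* and *Dnajb4*) and 0 higher, beside 356 of all 10562 genes, and DESeq2 called 0. *Hspa1b* had a log2 change of -2.37 (SE 0.436, edgeR adjusted p = 0.0787) and *Hspa1a* one of -2.13 (SE 0.460, edgeR adjusted p = 0.211). Of the 59 members 42 were below 0, with a median of -0.10. In cluster 8 edgeR called 0 of 52 members and had 1 lower and 0 higher at an unadjusted p of 0.05, *Hspa1a* with -1.53 (SE 0.357, edgeR adjusted p = 0.216), beside 284 of all 8371 genes. DESeq2 called 0 there, and edgeR called 0.0358% of these genes lower and 0.0597% higher.

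In bulk microglia of naive mice the inducible members were higher in middle-aged mice. They summed to 1456 CPM in the young library against 2564 CPM in the middle-aged library, a log2 ratio of 0.82 (0.81 to 0.83), with 8 of 8 members higher. The bulk counts are reads, and reads copied from 1 molecule would make the bulk intervals too narrow. In bulk RNA fewer cells of a type and less RNA per cell cannot be told apart. *Hspa1a* had 21217 counts in the young library and 41666 in the middle-aged one, or 267 and 546 CPM, a ratio of 1.03 (1.01 to 1.06). *Hspa1b* had 38401 and 72161 counts, or 484 and 946 CPM, and 0.97. *Hsph1* had a ratio of 0.95, *Hspb1* 0.80, *Hsp90aa1* 0.70, *Dnaja1* 0.52, *Dnajb1* 0.49 and *Dnajb4* 0.45. In cluster 10 of diseased mice each of these 8 genes was lower in the middle-aged library of day 6.

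The ER sum in bulk was 2301 and 2619 CPM, a ratio of 0.19, which rested on *Hspa5* with 872 and 1176 CPM and a ratio of 0.43. Without *Hspa5* the class ratio was 0.01, and the median of its 14 members was -0.02. *Hsp90b1* had 0.07, *Dnajb9* 0.19 and *Dnajc10* -0.35. In the mitochondrial class, with a ratio of 0.15, *Hspe1* had 0.54 (34.2 and 49.6 CPM), *Hspd1* 0.48 (56.4 and 78.7 CPM) and *Hspa9* -0.08 (99.1 and 93.4 CPM). The head-to-head pair was thus higher together in middle-aged mice. Constitutive members had a ratio of 0.38, with *Hspa8* at 0.60 and *Hsp90ab1* at 0.36. *Hspa1l*, a testis-type Hsp70 beside the inducible pair, had 52 and 84 counts and 0.75 (0.23 to 1.28). *Dnajc17* and *Dnajc9* had -0.28 and -0.22.

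**Figure D5:**
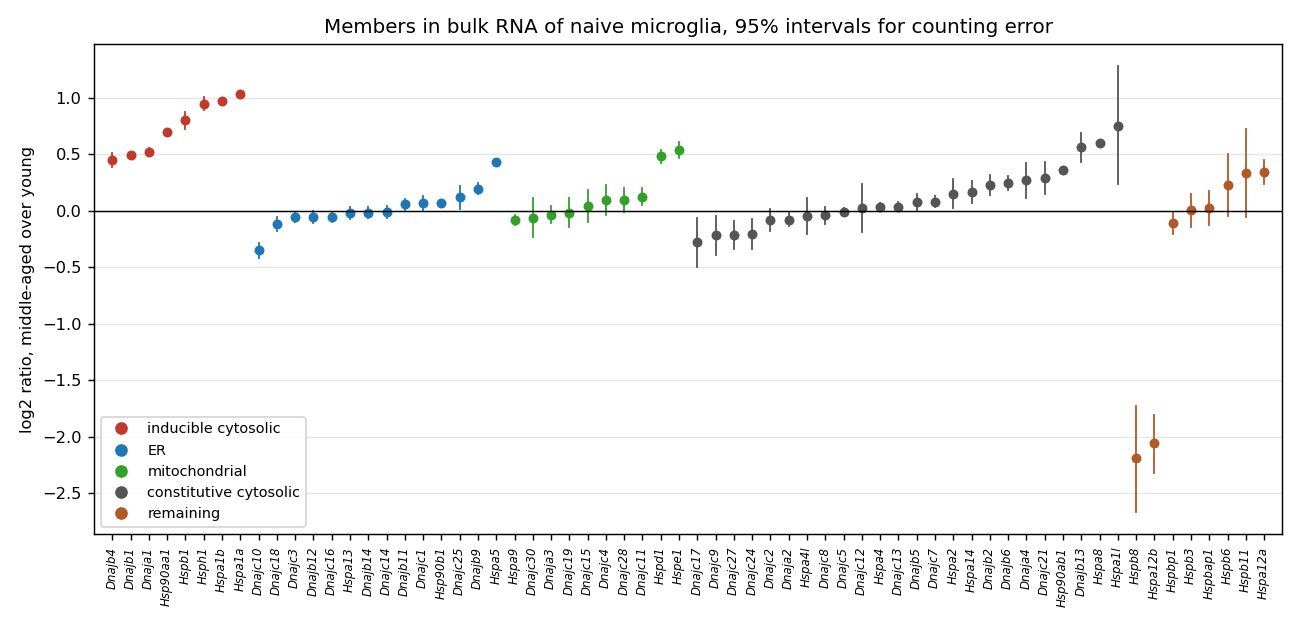
Log2 age ratio (middle-aged divided by young) in bulk RNA of naive microglia (vertical axis) for members with 100 or more counts (horizontal axis, ordered by class). Lines are 95% intervals for counting error. All 8 inducible members lie above 0, from 0.45 to 1.03, and *Hspb8* and *Hspa12b* lie near -2.18 and -2.06.

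Of 64 members with 100 or more counts in bulk, 2 were at least 2-fold lower in middle-aged mice and 1 was 2-fold higher, where 6.92% of 14821 genes were lower and 1.16% higher. The higher one was *Hspa1a*. The lower ones were *Hspb8*, or Hsp22, a small heat shock protein of selective autophagy (227 and 48 counts, -2.18), and *Hspa12b*, an Hsp70 relative known from endothelium (676 and 156 counts, -2.06). The median of the 64 members was 0.07, against -0.01 over all genes, with 40 higher and 24 lower. Endothelial markers in bulk summed to 715 and 170 CPM, a ratio of -2.07 with 9 of 9 lower, and mural markers had -2.16, although the sort kept cells positive for CD11b with intermediate CD45. The part of these cells in the values of *Hspb8* and *Hspa12b* was not tested. The 10 microglia markers had 32034 and 30100 CPM. The 16 immediate-early genes had a ratio of 0.50 with 16 of 16 higher, and their part in the inducible difference was not tested. Cochaperones of HSF1 and Hsp70 had 0.24, TRiC 0.04, the ER unfolded protein response 0.04 and mitochondrial import and proteases 0.01.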

How the data were processed

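Per the labels and the study's methods, the authors counted the single-cell libraries with Cell Ranger 3.1.0 on mm10, removed cells by depth, mitochondrial and ribosomal share, and clustered the rest. The deposited values were unnormalized UMI counts for each gene in each cell, and a cluster number came with each cell. For bulk RNA the authors deposited read counts from featureCounts, unstranded, with 79373420 and 76293436 counts. The members, lists and tests were chosen with earlier results of these data known. Named members were the 6 with the most UMIs of a class, the 5 lowest and highest day 6 ratios in clusters 10, 8 and 2 and in bulk, called genes, and those in the study's figures. Counts were summed per cluster and library. Ratios of CPM have exact conditional binomial 95% intervals. Ratios of 100 or more counts were compared with 2-fold. Sums were tested in R 4.3.3 with edgeR 4.0.16 (TMM, 10 or more counts in 2 libraries) and DESeq2 1.42.0, and scripts were tested on simulated data. No doublet caller was run. The alternatives changed the scaling, minimum count, per-cell scale, cells with markers of other lineages, filter, design and libraries.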

Additional observations from a re-analysis of the deposited data

Results flagged for a closer look

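Among the class sums of clusters 10, 8 and 2, 3 had day 6 and day 10 age ratios of opposite direction with both intervals away from 0. Other clusters are not covered by this count, and the difference between the days was not tested, since each day had 1 library per age. In cluster 10 the ER sum had a log2 age ratio (middle-aged divided by young) of -0.92 on day 6 and 0.16 on day 10. In cluster 8 the ER sum had -0.30 and 0.25, and its day 6 value turned to 0.0624 without cells that held markers of other lineages. That filter kept 52 of 249 young and 47 of 364 middle-aged cells. In cluster 2 the mitochondrial sum had 0.0805 and -0.0917, and its day 6 value turned to -0.10 for log-normalized cells. In clusters 10 and 8 the young library moved furthest between the days, from 7428 to 2356 CPM and from 2716 to 1414 CPM, and the microglia markers in those clusters had ratios of -0.69 and -0.63 on day 6 and -0.02 and 0.28 on day 10.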

How the results depend on the processing

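In cluster 10 on day 6 the inducible ratio of -2.06 became -1.997 with TMM scaling and -2 with cells left out by shorter marker lists, -1.74 for log-normalized cells, -2.20 as the median member and -2.56 without the highest member. The ER ratio of -0.92 became -0.86, -1.03, -0.83, -0.36 and -0.52 in that order, and the mitochondrial ratio of -0.37 became -0.24 for log-normalized cells and -0.0452 as the median. On day 10 the inducible ratio of -0.05 became 0.16 with shorter lists, 0.04996 log-normalized and -0.17 as the median, the ER ratio of 0.16 became 0.11, 0.10 and 0.10, and 0.0868 without the highest member, and the mitochondrial ratio of -0.05 became 0.0477 with shorter lists. Members 2-fold lower there on day 6 rose from 10 to 17 with no minimum count, and members 2-fold higher from 0 to 1 with a minimum of 20 or none. Directions turned for the ER ratio of cluster 8 on day 6 (0.0624 with full lineage lists), in cluster 2 for the ER ratio (-0.15, median) and the mitochondrial ratio (-0.10 log-normalized and -0.0087 without the highest member) on day 6 and the constitutive ratio on day 10 (0.0734, median), and for the bulk ER ratio (-0.0153, median). In bulk the inducible ratio of 0.82 became 0.75 as the median and 0.73 without the highest member, the ER ratio 0.0133 without it, the mitochondrial ratio 0.0669 and 0.25, and 5 members were 2-fold lower at a minimum of 20 or none. Genes called by edgeR in cluster 10 went from 15 to 53 without a filter, 0 without day and 5 with DESeq2, in cluster 8 from 8 to 41, 0 and 2, and in cluster 2 from 9 to 34, 0 without day and 16 with RLE factors. Members called went from 0 to 1 (RLE) and 4 (no filter) in cluster 10, from 0 to 1 (no filter) in cluster 8 and from 2 to 0 (without day) in cluster 2. With 1 library left out, in fits that also had no day term, edgeR called 0 to 1 genes in cluster 10, 0 in cluster 8 and 0 in cluster 2, and 0 members. The cause of these changes was not tested. Full lineage lists left 2 to 17 cells per library of cluster 10, so no value was computed there. In cluster 8 on day 6 they kept 52 of 249 young and 47 of 364 middle-aged cells. Of 1329 values for named members and the other classes and clusters, 1098 moved by less than their interval, 226 by more, and 5 turned, which are named above. The shorter marker lists and the 2-unit motif were chosen after seeing the data.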
